A study of Homo sapiens with 18 samples.

Results

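The suppressor of cytokine signalling (SOCS) family was followed in human cells whose transcription had been blocked with or without a topoisomerase II poison. The family has 8 genes, SOCS1, SOCS2, SOCS3, SOCS4, SOCS5, SOCS6, SOCS7 and CISH, and all of them were found by symbol among the 58051 gene identifiers of the count tables. Of these, 7 passed the filter on low counts, together with 14186 genes in all, and CISH did not. The family was chosen by measured values: earlier results of these libraries showed a large loss of SOCS3 mRNA at time point 40 against 0 in both arms. The SOCS3 values of that comparison are therefore a description and not a test. The other members were taken in by family and not for their values.

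SOCS proteins are inhibitors that cytokines induce against their own signal. Cytokine receptors activate JAK kinases, which phosphorylate STAT transcription factors, and STATs switch on SOCS genes as immediate targets. Each SOCS protein carries an SH2 domain, which binds phosphotyrosine on receptors or kinases, and a SOCS box, which joins elongins B and C and cullin 5 in a ubiquitin ligase. In mouse T cells the mRNAs of Socs1, Socs3 and Cish are known to carry N6-methyladenosine and to be removed through it, a mark on which the series from which these libraries come is centred. Methylation itself was not measured in the libraries used here.

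RNA came from hTERT RPE-1, retinal pigment epithelial cells immortalised with telomerase and arrested here by 48 h in 0.1% serum after growth in 10% serum. The libraries form 6 groups of 3 independent replicates: etoposide at time points 0, 20 and 40, and DMSO at 0, 20 and 40. Etoposide, which traps topoisomerase II on cleaved DNA, was given at 50 µM for 30 min. Triptolide, which stops transcription by RNA polymerase II, was used at 10 µM in both arms to follow the stability of mRNAs. The labels state neither the unit of the time points nor whether triptolide was already present at 0, and the word DMSO stands in the sample titles alone.

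Total counts ran from 7957691 to 11580219 per library, and 3 counts correspond to 0.259 to 0.377 CPM (counts scaled to a library total of 1000000) before TMM factors. All other CPM include the TMM factors. All values are relative to the library total, so a loss of RNA common to all genes cannot be seen. In these bulk libraries fewer cells and less RNA per cell cannot be told apart. The cells expressed MITF at 23.8 to 69.6 CPM and OTX2 at 17.0 to 38.2 CPM, factors of the pigment epithelium, whereas RPE65, its visual cycle enzyme, stayed at or below 0.671 CPM and TYR, DCT and TTR at or near 0. The leukocyte marker PTPRC stayed at or below 1.04 CPM. Replicate 2 of DMSO at 0 stands apart with 1.42% of its counts in antisense genes, against 0.217 to 0.253% in the other libraries. Replicate 3 stands apart in every group, in that 44 coding genes above 5 CPM in replicates 1 and 2 had 0 counts in it, none of them a SOCS gene.

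Labile mRNAs of cytokines and their regulators are known for short elements in their untranslated ends, and most SOCS mRNAs hold some of them. The sequence ATTTA, the core of AU-rich elements, occurred 4 times in the 1640 bases of the SOCS3 3′ untranslated region (UTR), 16 times in SOCS6, 14 times in SOCS4, 10 times in SOCS5, 9 times in SOCS7, 5 times in SOCS2 and 3 times in CISH, counting overlapping matches on the sense strand of the GENCODE 29 transcript. SOCS1 had 0 in its 438 bases. Per 1000 bases of that region the counts were 4.077 in SOCS6, 3.347 in SOCS5, 3.193 in SOCS2 and 2.765 in CISH. SOCS4 had 2.732, SOCS3 2.439 and SOCS7 1.473, where the median of the tested coding genes was 1.667. Of 12047 tested coding genes, 70.5% hold at least 1 ATTTA in that region. The longer form TTATTTATT, which 8.6% of those genes hold, was found in CISH (2) and SOCS2 (1). Windows of 30 bases are shown for SOCS3 and SOCS6, 2 of the members with the highest levels per exon length at 0. A window is also shown for CISH, where it holds the longer form. ATTTA is in capitals. The places in GRCh38 are SOCS3 at chr17:78356823-78356852 (minus strand), SOCS6 at chr18:70326772-70326801 (plus) and CISH at chr3:50607098-50607127 (minus).
SOCS3: acatATTTAtATTTAtattcagaaaagaaa
SOCS6: ttaatctcttactttaaaaagATTTATTTA
CISH: acaattatacactATTTATTTATTTAttct

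The pentamer GGACT, the most common core of the methylation motif when read as RNA, was counted in the same transcripts. SOCS7 held 10 copies over the whole transcript, SOCS5 7, SOCS6 6, SOCS2, SOCS3 and CISH 5 each and SOCS4 4, while SOCS1 held 0. Per 1000 bases of transcript the order differed, with 2.447 in CISH, 1.829 in SOCS3, 1.811 in SOCS2 and 1.467 in SOCS5. SOCS7 had 1.273, SOCS6 1.026 and SOCS4 0.59, where the median of the tested coding genes was 0.933. At least 1 copy is present in 91.6% of the tested coding genes. A match does not show that the site is methylated. In SOCS3, 2 of the copies lie in the 3′ UTR, 1 of them at chr17:78357442-78357471 (minus strand), with GGACT in capitals.
SOCS3: ggagaggctgagGGACTcactggagggcac

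A further element concerns how the genes are switched on. STAT dimers bind TTCNNNGAA, a motif that reads the same on both strands. RefSeq promoter windows of 300 bases (250 before and 50 after a transcript start, GRCh38.p14) were at hand for CISH, SOCS1, SOCS3, SOCS4 and SOCS6. The CISH window held 4 matches, whereas the windows of the other 4 genes held 0, which says nothing about sites outside them. The SOCS3 windows, chr17:78359618-78359917 and chr17:78360876-78361175 (minus strand), do not cover the start of the gene as annotated by GENCODE, at 78360077. Their 0 matches therefore do not describe the SOCS3 promoter at that start. Of 35116 windows in the genome, 7.7% held at least 1 match and 7 held 4 or more. The CISH promoter, chr3:50611725-50612024 on the minus strand, is shown with these matches in capitals because the gene was nearly silent in these cells.
CISH: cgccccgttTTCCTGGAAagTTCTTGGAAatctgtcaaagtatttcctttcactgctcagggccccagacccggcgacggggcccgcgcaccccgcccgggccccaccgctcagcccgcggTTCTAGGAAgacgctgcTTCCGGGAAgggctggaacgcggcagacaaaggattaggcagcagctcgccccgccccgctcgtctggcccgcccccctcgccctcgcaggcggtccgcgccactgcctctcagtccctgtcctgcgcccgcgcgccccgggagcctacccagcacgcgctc

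Levels per length were compared as RPKM (CPM per 1000 bases of exon), with the mean ± SD of 3 libraries. The order depends on the length, here the summed exons of the gene. That length is 2734 bases for SOCS3, as in its transcript, but 7598 for SOCS5 (transcript 4771) and 6776 for SOCS2 (transcript 2761). In CPM at 0, SOCS5, SOCS6 and SOCS4 had means of 48.0, 42.8 and 31.7 with etoposide, above SOCS3 at 25.8. With DMSO they had 45.9, 39.2 and 27.9, and SOCS3 had 24.4. By RPKM, SOCS3 was the highest member at time point 0, at 9.43 ± 1.4 RPKM with etoposide and 8.91 ± 1.78 RPKM with DMSO. SOCS6 followed at 7.15 ± 0.695 RPKM with etoposide and 6.56 ± 1.14 RPKM with DMSO, SOCS5 at 6.31 ± 1.09 and 6.04 ± 1.73 RPKM, and SOCS4 at 4.5 ± 1.23 and 3.96 ± 1.98 RPKM. SOCS3 did not overlap with SOCS6 in the etoposide libraries at 0 but did in the DMSO libraries, and SOCS6, SOCS5 and SOCS4 each overlapped with the next. A second tier held SOCS2, at 1.36 ± 0.240 RPKM with etoposide and 1.67 ± 0.451 RPKM with DMSO, and SOCS1, at 1.06 ± 0.537 and 1.31 ± 0.630 RPKM, which overlapped with each other but not with SOCS4. SOCS7 was lower at 0.253 ± 0.107 RPKM with etoposide and 0.239 ± 0.169 RPKM with DMSO. CISH was last at 0.103 ± 0.0425 and 0.0775 ± 0.0315 RPKM.

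At 40 the order by RPKM had changed at its top. With etoposide SOCS3 stood 4th at 2.04 ± 0.308 RPKM, below SOCS5 (4.66 ± 1.34), SOCS6 (4.48 ± 1.21) and SOCS4 (3.66 ± 1.54) and above SOCS2 (1.42 ± 0.306), without overlap with SOCS4 or SOCS2. With DMSO it stood 5th at 0.997 ± 0.235 RPKM, below SOCS2 at 1.63 ± 0.116 RPKM, again without overlap. The place of SOCS3 above SOCS2 with etoposide rests on the summed exon length. In CPM the order was the reverse, with SOCS2 at 9.65 ± 2.07 CPM and SOCS3 at 5.56 ± 0.843 CPM, also without overlap.

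**Figure D1:**
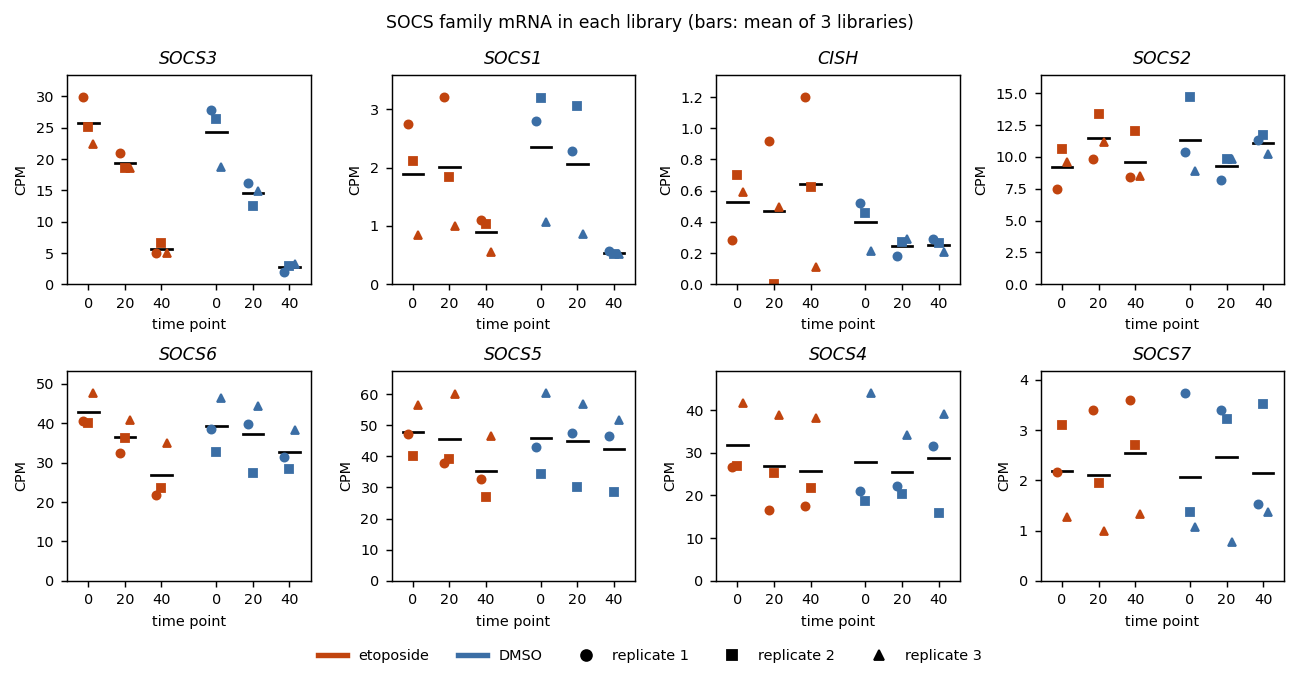
Normalised read counts (CPM) of the 8 SOCS family genes in each of the 18 libraries, etoposide at the left and DMSO at the right of each panel, by time point. SOCS3 lies between 2.01 and 6.54 CPM at 40, below all its libraries at 0 and 20, SOCS4, SOCS5 and SOCS6 stay above 15 CPM throughout, and CISH stays at or below 1.20 CPM.

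SOCS3 lies at chr17:78356778-78360077 on the minus strand, with no other annotated gene in its span. Its protein docks on the shared receptor subunit IL6ST and blocks the bound JAK kinases. With etoposide SOCS3 had 29.9, 25.1 and 22.4 CPM in replicates 1 to 3 at 0, 20.9, 18.5 and 18.6 CPM at 20, and 5.07, 6.54 and 5.08 CPM at 40. With DMSO the values were 27.9, 26.4 and 18.8 CPM at 0, 16.2, 12.5 and 14.9 CPM at 20, and 2.01, 2.91 and 3.26 CPM at 40. In both arms every library at 40 lay below every library at 20, and every library at 20 lay below every library at 0. Of all genes, 3.06% with etoposide and 4.11% with DMSO were lower at 40 than at 20 without overlap, and 2.37% and 1.65% were lower at 20 than at 0.

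On the log2 scale the larger change of SOCS3 was in the interval from 20 to 40. Set against the library of the same replicate number at 0, 75.6 ± 6.94% of the mRNA was left at 20 and 21.9 ± 4.60% at 40 with etoposide (SD, n = 3). With DMSO 61.5 ± 16.1% was left at 20 and 11.9 ± 5.10% at 40. Between 20 and 40 alone, the share left was 29 ± 5.76% with etoposide and 19.2 ± 5.93% with DMSO.

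The log2 change of SOCS3 at 40 against 20 was -1.80 (SE 0.20) with etoposide and -2.41 (SE 0.21) with DMSO. Since the libraries at 40 are those for whose low SOCS3 the family was chosen, these values too are a description and not a test. None of the other 6 tested members passed at 40 against 20 in either arm in edgeR's quasi-likelihood test over all 14186 genes, with Benjamini-Hochberg adjustment, where 0.0423% of all genes were called with etoposide and 0.219% with DMSO. An unadjusted p under 0.05 was found for 1 of them in each arm, SOCS6 with etoposide (0.0493) and SOCS1 with DMSO (0.0059), and DESeq2 likewise called no member but SOCS3.

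From 0 to 20 the change of SOCS3 was smaller and did not pass the test, in a comparison that shares the libraries at 0 with the one that chose the family. The log2 change was -0.41 (SE 0.19, adjusted p = 1.0) with etoposide and -0.75 (SE 0.20, adjusted p = 1.0) with DMSO. edgeR called 0 of the 7 members and 0.0% of all genes at 20 against 0 in either arm. In that test 145 genes with etoposide and 198 with DMSO had an unadjusted p under 0.05. SOCS3 was the only member among them, with an unadjusted p of 0.0488 with etoposide and 0.00151 with DMSO. DESeq2 called 0 members in both arms.

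Over the whole course, as a description of the values that chose the family, the log2 change of SOCS3 at 40 against 0 was -2.21 (SE 0.21) with etoposide and -3.16 (SE 0.22) with DMSO. Without replicate 2 of DMSO at 0, the library with the high antisense share, the change with DMSO was -3.09. Ranked from the strongest fall among the 14186 tested genes, SOCS3 stood 19th with etoposide and 45th with DMSO. Among the 10810 genes with a mean of at least 5 CPM it stood 4th and 25th.

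**Figure D2:**
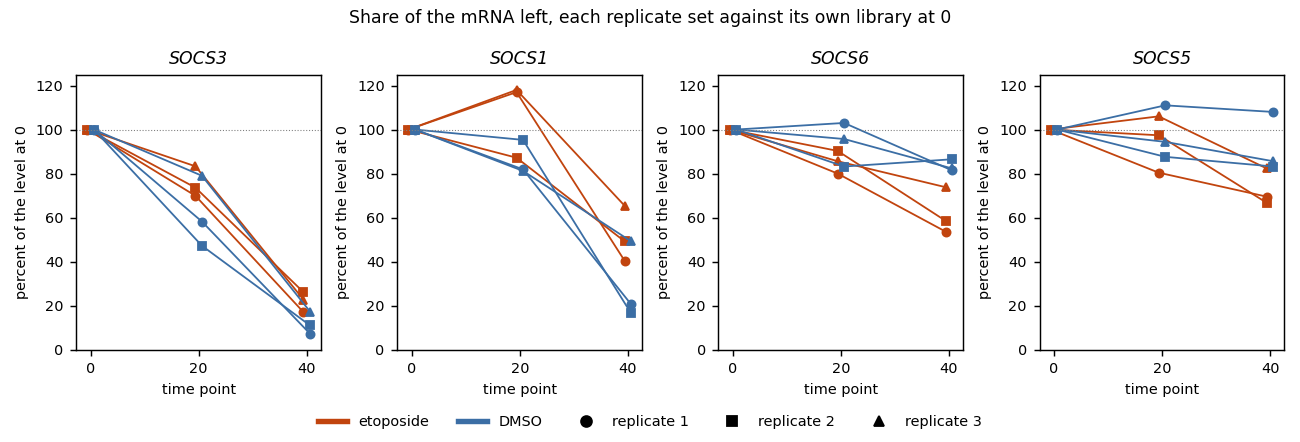
Percent of the level at 0 that was left at 20 and 40 for SOCS3, SOCS1, SOCS6 and SOCS5, with one line for each replicate number (etoposide and DMSO by colour). SOCS3 stays above 47% in every replicate at 20 and is between 7.23 and 26.1% at 40, whereas SOCS5 and SOCS6 stay above 53% throughout.

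SOCS1, a direct inhibitor of the JAK kinase domain and the main brake on interferon signalling, had lower values at 40 than at 0 in 3 of 3 pairs in both arms, as did SOCS3 and SOCS6. Of all genes, 17.6% with etoposide and 14.9% with DMSO were lower in all 3 pairs. It lies at chr16:11254405-11256200 on the minus strand, within the span of RMI2 on the opposite strand but without shared exon bases. With etoposide it had 2.74, 2.11 and 0.844 CPM in replicates 1 to 3 at 0, 3.21, 1.84 and 0.994 CPM at 20, and 1.11, 1.04 and 0.552 CPM at 40. With DMSO it had 2.80, 3.20 and 1.07 CPM at 0, 2.29, 3.05 and 0.868 CPM at 20, and 0.575, 0.528 and 0.526 CPM at 40. The DMSO libraries at 40 held 6, 6 and 5 reads of SOCS1, so these levels are close to the floor of 3 counts. In the DMSO arm the libraries at 40 did not overlap with those at 0, while in the etoposide arm they did because replicate 3 started low.

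The share of SOCS1 left at 20 was 107 ± 17.5% with etoposide and 86.1 ± 7.97% with DMSO, and the share left at 40 was 51.7 ± 12.7% and 28.8 ± 17.8%. At 40 against 0 its log2 change was -1.05 (SE 0.58, adjusted p = 1.0) with etoposide and -2.09 (SE 0.60, adjusted p = 0.298) with DMSO, so neither passed in the fit without the replicate block. Without replicate 2 of DMSO at 0 the change with DMSO was -1.81 (adjusted p = 1.0). With replicate number as a block, SOCS1 fell in the DMSO arm, with a log2 change of -2.05 (SE 0.41, adjusted p = 0.00673) at 40 against 0 and -1.87 (SE 0.41, adjusted p = 0.0257) at 40 against 20. At 40 against 20 SOCS1 was the only one of the members other than SOCS3 that passed in the blocked fit, with DMSO, where 0.768% of all genes were called, while none did with etoposide, where 0.486% were. That call was lost without replicate 1 (adjusted p = 0.211), replicate 2 (adjusted p = 0.409) or replicate 3 (adjusted p = 0.114) in the same fit. With etoposide the blocked change at 40 against 0 was -1.03 (SE 0.38, adjusted p = 0.442). The blocked call at 40 against 0 with DMSO was lost without replicate 1 (adjusted p = 0.183) or replicate 2 (adjusted p = 0.214), and it held without replicate 3 (adjusted p = 0.0426).

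SOCS6, which binds receptor tyrosine kinases and insulin receptor substrates, had the lower mean share left at 40 under etoposide, the reverse of SOCS3, SOCS1 and SOCS2. SOCS5 (72.8 ± 8.32% with etoposide and 92.3 ± 13.8% with DMSO) and SOCS4 (79.5 ± 12.9 and 108 ± 36.3%) went the same way as SOCS6. SOCS7 did so in its mean share (119 ± 41.4 and 142 ± 109%) but not in its log2 change (0.23 with etoposide and 0.06 with DMSO). Its shares with DMSO were 41.1, 257 and 128% in replicates 1 to 3. SOCS6 lies at chr18:70288901-70330200 on the plus strand. With etoposide it had 40.6, 40.2 and 47.6 CPM at 0, 32.5, 36.3 and 40.8 CPM at 20, and 21.8, 23.6 and 35.1 CPM at 40. With DMSO it had 38.5, 32.8 and 46.4 CPM at 0, 39.8, 27.3 and 44.4 CPM at 20, and 31.4, 28.4 and 38.2 CPM at 40. The etoposide libraries at 40 did not overlap with those at 0, whereas the DMSO libraries did.

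The share of SOCS6 left at 40 was 62.0 ± 10.5% with etoposide and 83.4 ± 2.72% with DMSO. Its log2 change at 40 against 0 was -0.68 (SE 0.21, adjusted p = 0.569) with etoposide and -0.27 (SE 0.21, adjusted p = 1.0) with DMSO. With the replicate block SOCS6 fell with etoposide, with a log2 change of -0.69 (SE 0.13, adjusted p = 0.00413), a call that was lost without replicate 1 (adjusted p = 0.148) or replicate 3 (adjusted p = 0.0909). The difference of the changes of both arms was not called, at -0.41 (SE 0.30, adjusted p = 1.0) without the block and -0.43 (SE 0.18, adjusted p = 0.992) with it.

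SOCS5 and SOCS4, relatives with long amino-terminal regions that act on the EGF receptor, were not called at 40 in either arm. SOCS5 had 32.7, 26.8 and 46.6 CPM at 40 with etoposide, against 47.1, 40.1 and 56.6 CPM at 0, and 46.5, 28.6 and 51.5 CPM at 40 with DMSO, against 43.0, 34.4 and 60.2 CPM at 0. The groups overlapped in both arms. SOCS5's log2 change at 40 against 0 was -0.44 (95% interval -1.02 to 0.14) with etoposide and -0.12 (-0.70 to 0.46) with DMSO. With the replicate block the change with etoposide was -0.46 (SE 0.13, adjusted p = 0.102). For SOCS4 the change was -0.30 (-1.12 to 0.53) with etoposide and 0.05 (-0.78 to 0.88) with DMSO, over levels of 15.9 to 43.9 CPM in all libraries. Both genes were highest in replicate 3 in every group, the reverse of SOCS1, which was lowest there at 0 and 20.

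SOCS2, a regulator of growth hormone signalling, was as high at 40 as at 0 within its spread. It had 8.39, 12 and 8.51 CPM at 40 with etoposide, against 7.46, 10.6 and 9.62 CPM at 0, and 11.3, 11.7 and 10.2 CPM at 40 with DMSO, against 10.4, 14.7 and 8.87 CPM at 0. The log2 change was 0.06 (95% interval -0.36 to 0.49) with etoposide and -0.03 (-0.45 to 0.39) with DMSO. An antisense gene, SOCS2-AS1, shares 277 exon bases with SOCS2 and held 8 to 28 reads per library, and whether the counting used strand is not given in the sources used here. SOCS7, which binds insulin receptor substrates and the adaptor NCK1, had 8 to 40 reads per library. Without the replicate block its change was 0.23 (-1.0 to 1.46) with etoposide and 0.06 (-1.18 to 1.30) with DMSO, intervals that leave room for a doubling or halving. With the block the intervals were narrower, at 0.19 (-0.56 to 0.95) with etoposide and 0.11 (-0.68 to 0.89) with DMSO.

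CISH, which competes with STAT5 for sites on receptors such as EPOR, held 17, 14 and 20 reads in the etoposide groups at 0, 20 and 40, each summed over 3 libraries, and 11, 8 and 8 reads in the DMSO groups. Single libraries ranged from 0 to 13 reads. Its exons share 218 bases with MAPKAPK3 on the opposite strand, which stood at 44.8 to 61.3 CPM, so some of these few reads could not be assigned to CISH if strand was not used. No change of CISH was detectable at this depth.

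Counting calls, 1 of the 7 tested members passed at 40 against 0 in each arm, where 0.204% of all genes were called with etoposide and 0.423% with DMSO. In both arms it was SOCS3, and nothing is read from it. Values at 40 lay below those at 0 without overlap for SOCS3 and SOCS6 with etoposide, where 4.81% of all genes did so, and for SOCS3 and SOCS1 with DMSO, where 4.47% did so. With the replicate block 2 of 7 passed in each arm, SOCS3 and SOCS6 with etoposide and SOCS3 and SOCS1 with DMSO, where 1.01% and 1.23% of all genes were called. SOCS3 is in these counts through the choice of the family, so only SOCS6 with etoposide and SOCS1 with DMSO add to them. The same 7 members, SOCS3 included, had a median log2 change of -0.44 with etoposide and -0.12 with DMSO. The median over all genes was within 0.1 of 0. As SOCS3 is among the 7, these medians are a description and not a test of the family.

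**Figure D3:**
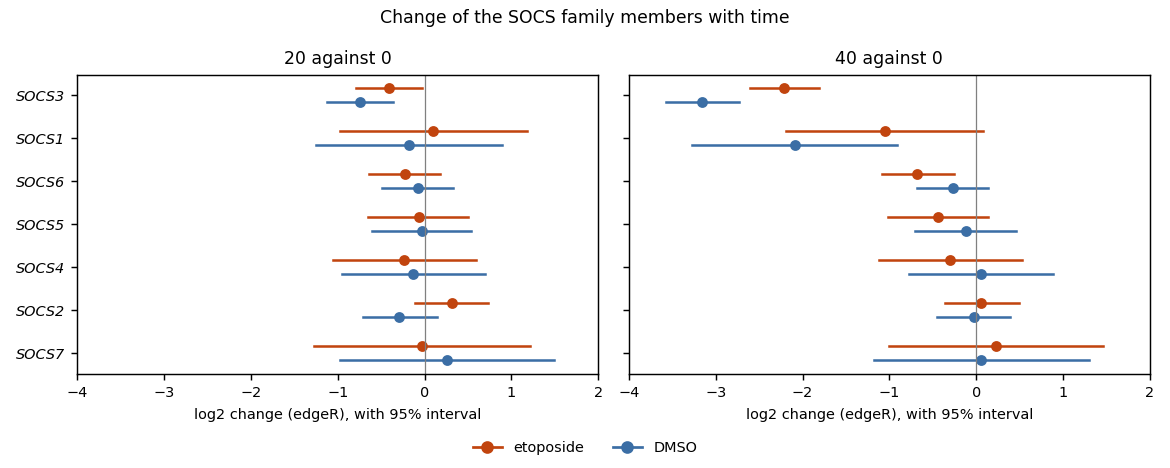
Log2 change of the 7 tested members at 20 and at 40 against 0 (edgeR without replicate block), with the 95% interval taken as 1.96 SE on each side. SOCS3 at 40 lies at -2.21 with etoposide and -3.16 with DMSO, and the intervals of SOCS2, SOCS4, SOCS5 and SOCS7 include 0 in both arms.

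The direct comparison of etoposide with DMSO asks whether the drug altered the level of the members at a given time. At 0 SOCS3 did not differ beyond its spread, with a log2 difference of 0.08 (95% interval -0.30 to 0.46). At 20 and at 40 each etoposide library had more SOCS3 than each DMSO library. The ratio of etoposide to DMSO within a replicate number was 1.29, 1.48 and 1.26 at 20 and 2.52, 2.25 and 1.56 at 40. Of all genes, 1.35% at 20 and 2.67% at 40 were higher in etoposide without overlap.

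The log2 difference of SOCS3 was 0.41 (SE 0.20, adjusted p = 1.0) at 20 and 1.03 (SE 0.21, adjusted p = 0.853) at 40, so it was not called at either time. With the replicate block the value at 40 was 1.02 (SE 0.23, adjusted p = 0.363). The change of SOCS3 from 0 to 40 was less negative with etoposide than with DMSO by 0.95 (SE 0.29, adjusted p = 1.0), with the block by 0.94 (SE 0.28, adjusted p = 0.992). A larger SOCS3 level under etoposide at 40 is thus seen in 3 of 3 pairs but did not survive adjustment over all genes. The comparisons that involve 40 use the libraries for whose low SOCS3 the family was chosen, so for SOCS3 their values are a description and not a test.

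None of the other 6 tested members separated the arms at any time. Without overlap, 3.06% of all genes were higher and 3.17% lower in etoposide at 0, 1.47% were lower at 20 and 1.56% lower at 40. At 0 SOCS1 was lower in etoposide in 3 of 3 pairs (ratios 0.978, 0.659 and 0.79), as 18.9% of all genes were, and SOCS6 was higher in 3 of 3 (1.05, 1.23 and 1.03), as 15.4% were. At 20 SOCS2 joined SOCS3 in being higher in 3 of 3 pairs (ratios 1.2, 1.35 and 1.14), as 8.22% of all genes were. At 40 SOCS1 was higher in etoposide in 3 of 3 pairs (ratios 1.92, 1.96 and 1.05), and SOCS6 (0.694, 0.831 and 0.921) and SOCS5 (0.704, 0.935 and 0.905) were lower in 3 of 3. Of all genes, 12.9% were higher and 12.5% lower in all 3 pairs. The log2 difference at 40 was 0.72 (95% interval -0.50 to 1.94) for SOCS1, -0.28 (-0.69 to 0.13) for SOCS6 and -0.25 (-0.83 to 0.32) for SOCS5. With the replicate block it was 0.70 (-0.20 to 1.60), -0.30 (-0.55 to -0.04) and -0.26 (-0.50 to -0.01), each with adjusted p = 0.997. edgeR called 0 members and 0.0% of all genes at 0, at 20, at 40 and over the 3 times together. An unadjusted p under 0.05 was found for 371 genes at 0, 107 at 20, 143 at 40 and 256 over the 3 times together. SOCS3 was the only member among the 107, the 143 and the 256, and no member was among the 371. Over the 3 times together the log2 difference of SOCS3 was 0.51 (SE 0.12) and was not called. DESeq2 called 0 members in these comparisons and 3, 0, 1 and 1 genes in all. With the block 0 members were called, and 0.00705% of all genes at 40 and 0.0282% over the 3 times together.

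**Figure D4:**
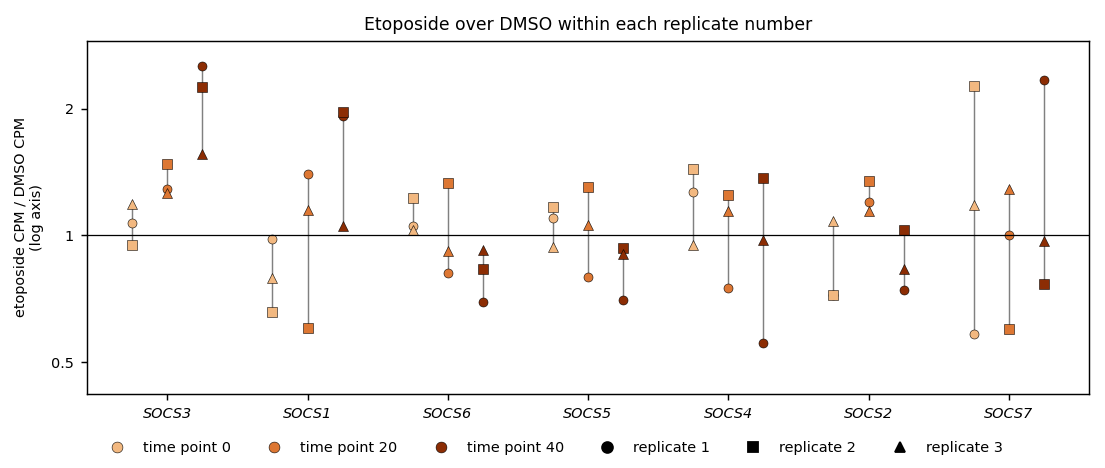
Ratio of etoposide to DMSO CPM within each replicate number at 0, 20 and 40 for the 7 tested members, on a log axis. The SOCS3 ratios lie between 0.95 and 1.19 at 0 and between 1.56 and 2.52 at 40, whereas those of SOCS7 range from 0.582 to 2.34.

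The machinery upstream of the family was expressed, and no change in it was called. JAK1 ranged from 138 to 196 CPM, TYK2 from 58.3 to 94.5 CPM and STAT3 from 114 to 166 CPM, while JAK3, the lymphoid kinase, stayed at or below 0.343 CPM. IL6ST, the receptor subunit that SOCS3 binds, ranged from 153 to 421 CPM and OSMR from 95.1 to 132 CPM. Receptors that can act through STAT5 differed in level. IL7R stood at 7.43 to 25.4 CPM, EPOR at 5.21 to 11.8 CPM and IL15RA at 2.21 to 4.61 CPM, whereas IL2RG, the chain that completes the IL-7 and IL-15 receptors, reached at most 0.0917 CPM, GHR 0.715 CPM and PRLR 0.803 CPM, and CSF2RB had 0. The genes whose levels are given here were picked with their values known. At 40 against 0, 0 of 3 JAK kinases, 0 of 6 STAT factors, 0 of 18 cytokine receptors, 0 of 11 other JAK-STAT inhibitors, 0 of 8 subunits of the SOCS box ubiquitin ligase, 0 of 13 other SOCS box proteins and 0 of 13 receptor kinases and adaptors bound by SOCS proteins were called, by edgeR, with or without the block in either arm. Of these 72 genes, 2 with etoposide (ASB7 and CBLB) and 1 with DMSO (STAT5A) had an unadjusted p under 0.05. STAT5A had a log2 change of 0.40 (SE 0.29, adjusted p = 1.0) with etoposide and -0.88 (SE 0.29, adjusted p = 0.512) with DMSO.

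Of the 10 tested cytokine ligands, LIF and IL6, both of which signal through IL6ST, were called lower at 40 in both arms in the fit with the replicate block. LIF averaged 89.8 ± 27.5 CPM at 40 with etoposide, against 171 ± 78.5 CPM at 0, and 72.7 ± 20.8 CPM at 40 with DMSO, against 148 ± 50.3 CPM at 0. IL6 averaged 0.648 ± 0.503 CPM at 40 with etoposide, against 3.42 ± 1.77 CPM at 0, and 0.856 ± 0.674 CPM at 40 with DMSO, against 3.79 ± 2.83 CPM at 0. Other ligands that signal through IL6ST were not called in either fit, such as IL11 and CTF1. IL11 stood at 16.2 ± 8.64 CPM at 40 with etoposide, against 15.7 ± 10.8 CPM at 0. CTF1 stood at 8.45 ± 0.31 CPM at 40 with DMSO, against 8.07 ± 1.09 CPM at 0. Both were named with their values known, each for a different arm. The ligand CLCF1, also called in neither fit, had a log2 change of -0.20 (SE 0.19) with etoposide and -0.35 (SE 0.19) with DMSO. Without the block edgeR called 0 of 10 ligands, of which 3 had an unadjusted p under 0.05 in each arm. In that fit the log2 change of LIF was -0.92 (SE 0.35) with etoposide and -1.03 (SE 0.35) with DMSO. That of IL6 was -2.35 (SE 0.84) and -2.11 (SE 0.82). With the block the adjusted p was 0.00148 with etoposide and 0.000353 with DMSO for LIF, and 0.0013 and 0.00317 for IL6. CSF2, named after its values were seen, was the other blocked call with DMSO (adjusted p = 0.00818). With the block, 1.01% of all genes were called lower with etoposide and 1.21% with DMSO.

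Genes that STAT3 is known to induce fell beside SOCS3 in part. Of 24 tested, 3 were called lower with etoposide and 5 with DMSO, and 0 higher, where 0.204% and 0.423% of all genes were called lower. With the block 7 and 12 were called lower, where 1.01% and 1.21% of all genes were. The list was chosen with earlier results of these data known, so these counts are a description and not a test. TRIB1 had a log2 change of -2.17 with etoposide and -2.63 with DMSO, KLF6 of -1.12 and -1.36 and MYC of -1.44 and -2.02, the 3 called in both arms, with adjusted p between 0.000364 and 0.0214. PIM1 (-0.96) and ZFP36 (-3.16, named after its values were seen) were called with DMSO in addition. The list's median was -0.32 with etoposide and -0.61 with DMSO. Interferon target genes, which SOCS1 restrains, were not called in either arm (0 of 23, median -0.09 in both, with an unadjusted p under 0.05 for 1 with etoposide and 2 with DMSO). With the block 1 was called, IRF9 with etoposide (adjusted p = 0.0445), whose log2 change without the block was -1.16.

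Among 13 AU-rich element binding proteins, ZFP36L1 (-1.39 with etoposide and -1.83 with DMSO) and ZFP36L2 (-1.28 and -1.57), which speed the decay of mRNAs with such elements, were called lower in both arms, and ZFP36 with DMSO, beside the same 0.204% and 0.423% of all genes. Of 18 genes of the methylation machinery edgeR called 0 (unadjusted p under 0.05 for 2 with etoposide and 1 with DMSO). With the block RBM15 was called with DMSO (adjusted p = 0.0174), and its log2 change without the block was -0.78. At 40 no gene of these lists was called between etoposide and DMSO, with or without the block. The AU-rich element binding proteins were also listed with earlier results of these data known, so their calls are a description and not a test.

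**Figure D5:**
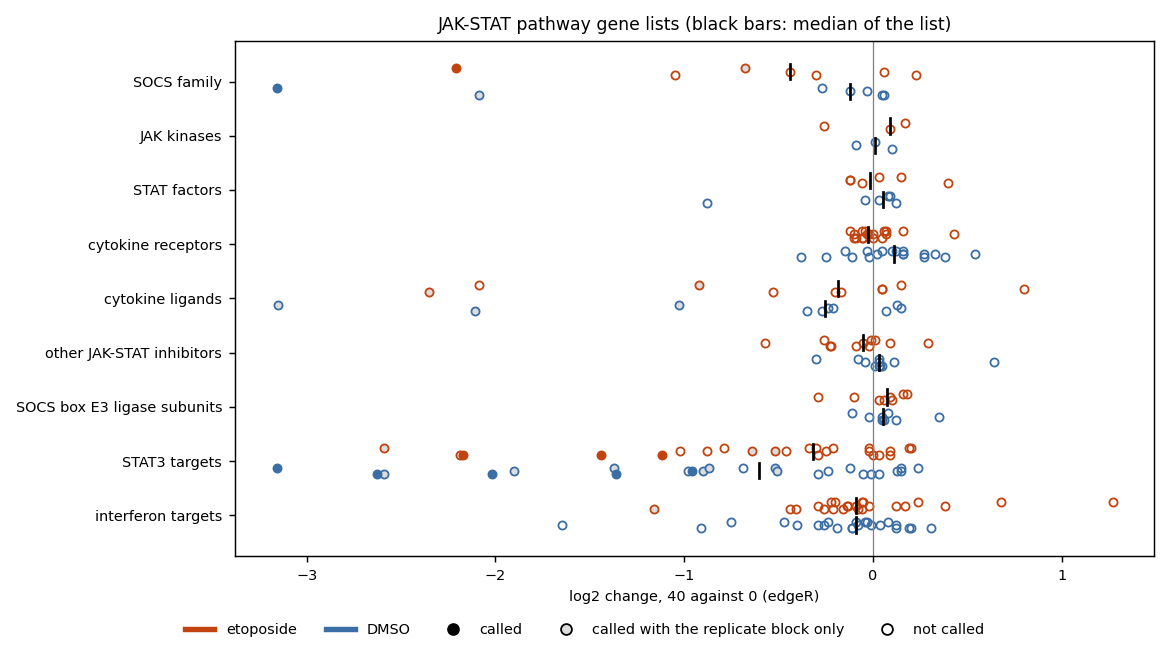
Log2 change at 40 against 0 of each tested gene of the SOCS family and of 8 JAK-STAT gene lists, etoposide above DMSO in each row, with the list's median as a black bar. Filled points were called without the replicate block and grey ones with it only; the medians are -0.44 and -0.12 for the SOCS family and -0.32 and -0.61 for STAT3 targets.

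Likeness of pattern was measured as Pearson's correlation of log2 CPM with SOCS3 over the 18 libraries, after the mean of each replicate number was taken off. Among 10809 other genes with a mean of at least 5 CPM, the most alike were SGK1 (0.978), ZFP36L2 (0.975), ADM (0.973), SOX9 (0.971), NFKBIA (0.969) and IER2 (0.968). All 6 had lower values at 40 than at 0 in both arms, from -0.77 for SOX9 to -2.03 for ADM with etoposide and from -0.92 for SOX9 to -2.76 for ADM with DMSO, which is less than SOCS3. Within the family, SOCS1 was the member most like SOCS3 (0.90), and SOCS5 and SOCS6 were alike (0.89). These points share libraries and scaling, and the correlations are descriptions.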

How the data were processed

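Stranded mRNA libraries (TruSeq Stranded mRNA, per the labels' protocols) of 18 RPE-1 samples were used. The values deposited are raw read counts for each gene. The submitters' processing notes name bcl2fastq, HISAT2 and featureCounts and the build GRCh38 (hg38). For versions, annotation release, strand setting and multiply mapped reads the answer is not given in the sources used here. Symbols, positions and exon lengths came from GENCODE release 29.

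Counts were tested with edgeR 4.0.16 (R 4.3.3; quasi-likelihood, TMM factors 0.976 to 1.023, default filter with a minimum count of 10) in one model of the 6 groups. P-values were adjusted over all 14186 tested genes, and genes were called below 0.05. SE were derived from the F statistic. CPM are TMM-scaled, and RPKM divide them by the summed exon length of the gene. DESeq2 1.42.0 and limma 3.58.1 (voom) were alternatives, with other scalings, filters, a replicate block and fits without replicates. The code was tested on simulated data.

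Same-numbered libraries deviated together: all 45 pairs between groups had a correlation over 0.1 (0.359 to 0.911), so the numbers pair the samples, and blocked values are given where they change a call. The labels call the replicates independent without saying more, so p-values measure the spread between these samples.

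The family and the gene lists were chosen with earlier results of these data known. All members are named, and of each list up to 4 genes with the smallest p in the comparisons at 40.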

Additional observations from a re-analysis of the deposited data

Results flagged for a closer look

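The values of SOCS2 at 40 against 20 lay on opposite sides of no change in the 2 arms, though neither change passed the test. With etoposide the level at 40 was 85.5, 90.0 and 76.0% of that at 20 in replicates 1 to 3, and with DMSO it was 139, 119 and 104%. The mean of the paired log2 changes was -0.26 with etoposide and 0.26 with DMSO, a difference of -0.52. In edgeR's quasi-likelihood test the log2 change was -0.25 (SE 0.22, adjusted p = 1.0) with etoposide and 0.25 (SE 0.22, adjusted p = 1.0) with DMSO, and with the replicate block the adjusted p was 1.0 and 0.767. Of all 14186 tested genes, 2.74% had every replicate of one arm on the opposite side from every replicate of the other at 40 against 20. The difference between the arms was not tested, and it was the only one of 21 combinations of a tested member and an interval with this pattern.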

How the results depend on the processing

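Of the 84 log2 values of the 7 tested members in 12 comparisons, 4 were called, all of SOCS3 in comparisons that use the libraries at 40 for which the family was chosen, and 0 of these changed sign under 33 alternative settings. In all, 45 values changed sign under at least 1 setting, and the size of these did not exceed 0.35. SOCS3 with etoposide against DMSO at 0 was -0.04 without replicate 1 of etoposide at 0 and -0.07 without replicate 3 of DMSO at 0, and 0.19 at most without 1 library. SOCS3 at 40 against 0 ranged from -2.36 to -2.0 with etoposide and from -3.44 to -2.86 with DMSO over 21 settings each, and etoposide against DMSO at 40 from 0.85 to 1.22, with adjusted p from 0.363 to 1.0.

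The count of members called was 1 at 40 against 0 and at 40 against 20 in both arms. With the replicate block, which takes up the pairing, it was 2 at 40 against 0 in both arms and 2 at 40 against 20 with DMSO, and the block changed no other call of a member. In the fit of the compared groups alone it was 0 at 40 against 20 with etoposide, where each group's spread rests on 3 libraries. Leaving out replicate 1, 2 or 3 in all groups gave 0 to 1 without the block at 40 against 0 with etoposide and at 40 against 20 in both arms. With the block kept, a setting chosen after the data were seen, it gave 1 to 2 at 40 against 0 and 1 at 40 against 20 in both arms.

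Over all genes, the block raised the calls to 143 at 40 against 0 with etoposide, against 29 without it, and to 174 with DMSO, against 60. At 40 against 20 it gave 69 with etoposide, against 6, and 109 with DMSO, against 31. DESeq2 gave 68, 108, 27 and 60 in the same order. The compared groups alone gave 6, 12, 0 and 8. At 40 against 20 with etoposide, plain library sizes gave 11, no filter 12 and a stricter filter 14, and with DMSO scaling to housekeeping and ribosomal protein genes gave 17. Between etoposide and DMSO, where edgeR called 0, the block gave 1 at 40 and 4 over the 3 times, and DESeq2 gave 3 at 0, 1 at 40 and 1 over the 3 times. Without a library or replicate number and without the block, the calls at 40 against 0 ranged from 0 to 36 with etoposide and from 2 to 86 with DMSO, and at 40 against 20 from 0 to 16 and from 1 to 39. Depth limits CISH, SOCS1 and SOCS7, with 0 to 13, 5 to 35 and 8 to 40 reads per library.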
